A study of Rattus norvegicus with 36 samples.

Results

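Rat kidneys studied 8 h after ischemia were compared with kidneys studied 2 h after the same injury, to follow gene expression through the early hours of ischemic acute renal failure. The comparison used 9 of the series' 36 arrays. The 8 h rats were 3, of which rats 1 and 2 had 2 arrays each (averaged) and rat 3 had 1, and the 2 h rats were 4 with 1 array each. The rats were chosen by their titles, with no measured value used. The animals were male rats aged 6 to 8 weeks, and the strain is not given in the sources used here. Blood flow to both kidneys was stopped for 40 min and then restored, for 8 h in one group and 2 h in the other, without a drug. Total RNA came from a portion of each kidney of a rat, so each value is an average over all cell types in that sample. The wider series measured 31 rats in all, including untreated, sham-operated, volume-depleted, cisplatin, mercuric chloride and alpha melanocyte stimulating hormone groups. A sham operation was studied at 8 h but not at 2 h, so the effects of surgery and of ischemia over time cannot be told apart here.

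When blood returns to an ischemic kidney, cells of the proximal tubule, which reabsorb most of the filtrate and burn fatty acids for energy, are injured first. Signalling kinases switch on immediate early genes such as Fos and Egr1 within minutes, and these messages are short-lived. Surviving tubule cells then lose transport and metabolic functions, make injury proteins such as Havcr1 and Lcn2, and prepare to divide, while leukocytes enter the tissue over the following hours and days. According to the labels, leukocytes have not yet entered at the earlier time.

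Levels are given as multiples of the median intensity of the array, with a floor of 0.1 below which intensities were not followed, and they were compared only within a probe. Differences are 8 h minus 2 h on the log2 scale, for 3 rats against 4. The standard error (SE) is from a fit to all rats of the series. SEs, intervals and p values thus rest on a spread pooled over all groups, not on the 8 h and 2 h rats alone. A fit of the 8 h and 2 h rats alone is described at the end. Adjusted p values are from limma with Benjamini-Hochberg adjustment over the 9489 probes tested, and a gene was called higher or lower at an adjusted p under 0.05. Where a gene had several probes, the brightest stood for it.

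The 8 h rats were less alike than the 2 h rats, and rat 3 of the 8 h group stood apart. Only 1.65% of its probes lay at the floor, against 8.43% to 12.18% on the other 8 arrays of both groups. Its median correlation with the other rats of its group was 0.928, and that of 8 h rats 1 and 2 was 0.959 and 0.961, against 0.985 to 0.987 in the 2 h rats. The median SD of a probe was 0.36 on the log2 scale over the 3 rats at 8 h, 0.08 over 8 h rats 1 and 2 alone, and 0.15 over the 2 h rats. The 0.08 is from rats averaged over 2 arrays each and the 0.15 from rats with 1 array, so they are not directly comparable. Where a rat had 2 arrays, the log2 differences between them had an SD over all probes of 0.25 in 8 h rat 1 and 0.30 in 8 h rat 2. That is another measure than the median SD of a probe, and the 2 should not be set against each other. Every result below was therefore also computed without 8 h rat 3, and the value is given where that changed a call or moved a called difference by more than 1.5 times.

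The samples had the markers of kidney. All 29 proximal tubule genes tested and all 21 markers of later nephron segments, from the loop of Henle to the collecting duct, lay above the floor in most rats. Of 8 markers of adrenal gland and fat, tissues that lie against the kidney, none was called between the groups, and their summed level was 5.46 to 7.80 in the 8 h rats against 5.16 to 11.6 in the 2 h rats.

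Between 2 h and 8 h, 3580 of 9489 probes were called (37.7%), 1947 higher (20.5%) and 1633 lower (17.2%) at 8 h. Changes of at least 2-fold numbered 384 higher and 393 lower. Counted by gene, 2407 of 6196 were called (38.8%), 1335 higher (21.5%) and 1072 lower (17.3%), and these are the shares against which the gene groups below should be read. The median over all genes was 0.05. Without 8 h rat 3 the number of probes called was 3619, with 1651 higher and 1968 lower, and the median over genes was -0.04. Leaving out any other rat gave 3095 to 3834 calls. For 33.0% of genes the 8 h and 2 h rats did not overlap.

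**Figure D1:**
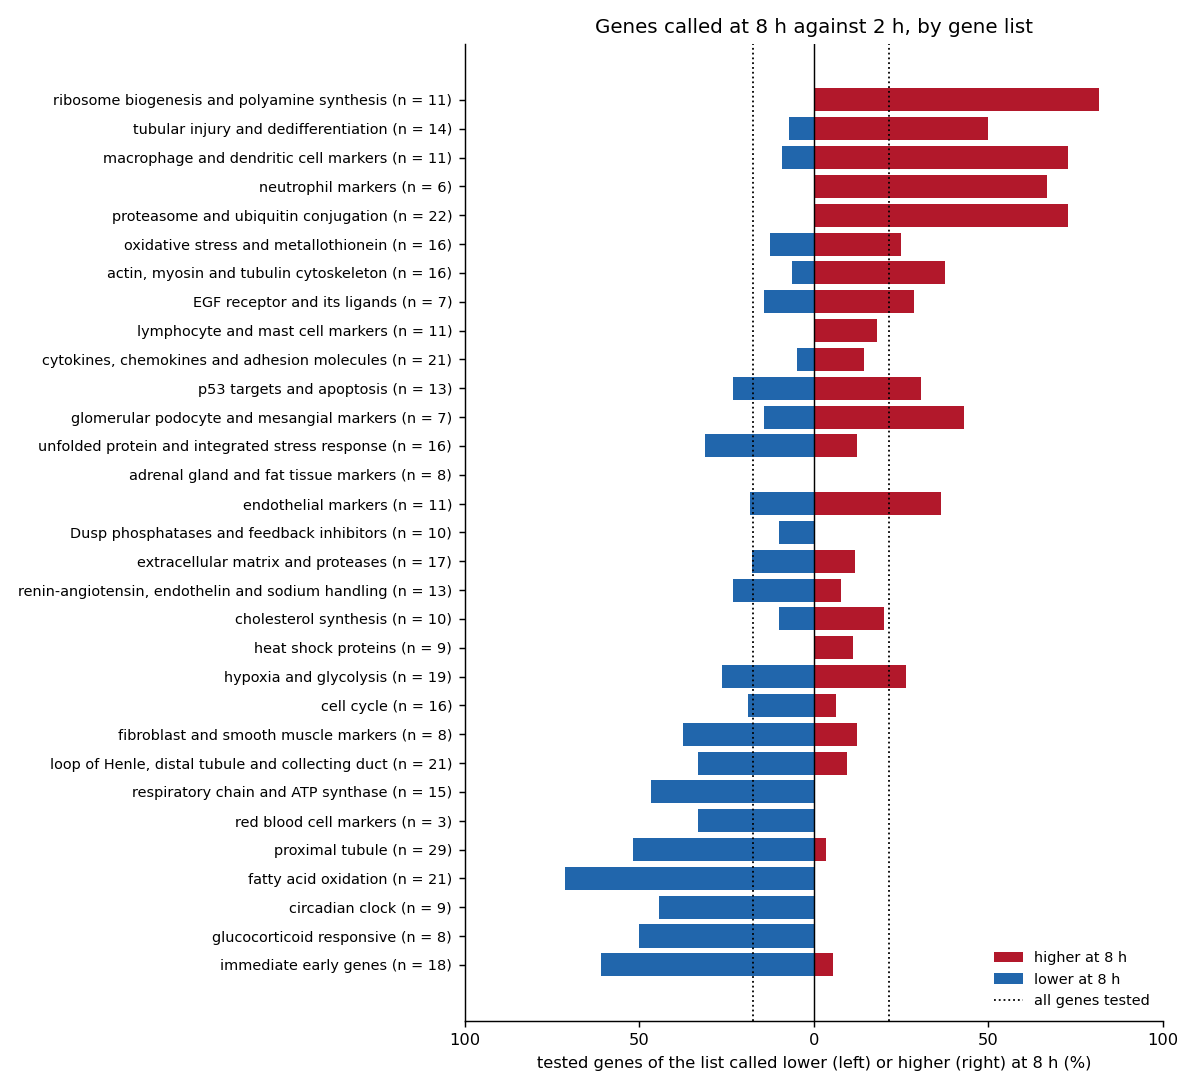
Share of tested genes in each of 31 gene lists that was called higher (red, right) or lower (blue, left) at 8 h against 2 h, in percent of the genes tested, with the number tested in brackets and lists ordered by median log2 difference. Dotted lines mark the shares over all genes, 21.5% higher and 17.3% lower: ribosome biogenesis genes (9 of 11 higher) and proteasome genes (16 of 22 higher) lie at one end, immediate early genes (11 of 18 lower) and fatty acid oxidation genes (15 of 21 lower) near the other.

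Immediate early genes were lower at 8 h than at 2 h, and Fos and Egr1 were above the normal kidney at both times. Of 18 tested, 11 were called lower and 1 higher, with a median difference of -0.90 (9 lower, 1 higher and -1.01 without 8 h rat 3). Fos, a subunit of the transcription factor AP-1, had levels of 11.1, 9.61 and 12.6 in the 8 h rats against 81.8, 75.6, 75.6 and 85.2 in the 2 h rats, and 0.879 to 1.31 in 3 normal rats of the same array lot. Every 8 h rat lay far below every 2 h rat and far above the normal rats. The Fos difference was -2.85 ± 0.66 (SE), a 7.19-fold lower level (adjusted p = 0.00129), and its other 2 probes gave -3.03 and -2.98. Egr1, a zinc finger transcription factor, showed the same order, with levels of 2.18, 1.76 and 1.81 at 8 h against 8.70, 9.52, 9.75 and 5.97 at 2 h (difference -2.12 ± 0.56, adjusted p = 0.00409), and 0.277 to 0.326 in the normal rats. Atf3, a stress-induced repressor, had levels of 13.3, 18.4 and 12.7 at 8 h against 48.2, 45.3, 34.9 and 44.0 at 2 h (-1.55 ± 0.45, adjusted p = 0.00741). Btg2, an antiproliferative gene, had levels of 10.6, 10.5 and 13.4 at 8 h against 51.0, 29.1, 28.1 and 37.1 at 2 h (-1.63 ± 0.46, adjusted p = 0.00653). Arc, best known for its role at synapses, fell by 1.49 on the log2 scale (adjusted p = 0.000117).

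The fall did not extend to every member of the group. Fosl1 (Fra-1), another AP-1 subunit, was the 1 gene called higher, with levels of 2.84, 3.13 and 4.94 at 8 h against 1.31, 1.39, 1.18 and 1.78 at 2 h (1.34 ± 0.23, adjusted p = 6.15e-05). Its second probe gave 1.67. Myc, which drives growth genes, had levels of 3.26, 3.30 and 0.689 at 8 h against 3.73, 3.11, 1.82 and 2.15 at 2 h, so the groups overlapped and no difference was called (adjusted p = 0.53). Its normal level was 0.142 to 0.430. Jun had levels of 6.2, 6.36 and 10.6 at 8 h against 14.6, 14.5, 16.5 and 12.8 at 2 h (-0.96 ± 0.35, adjusted p = 0.0314), a call that was lost when any one of 8 h rats 1 and 2 or 2 h rats 1, 2 and 3 was left out (adjusted p up to 0.0986). Dusp phosphatases and other feedback inhibitors of these pathways, 10 genes with a median of 0.00, had 1 member called, Dusp14, which was lower.

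**Figure D2:**
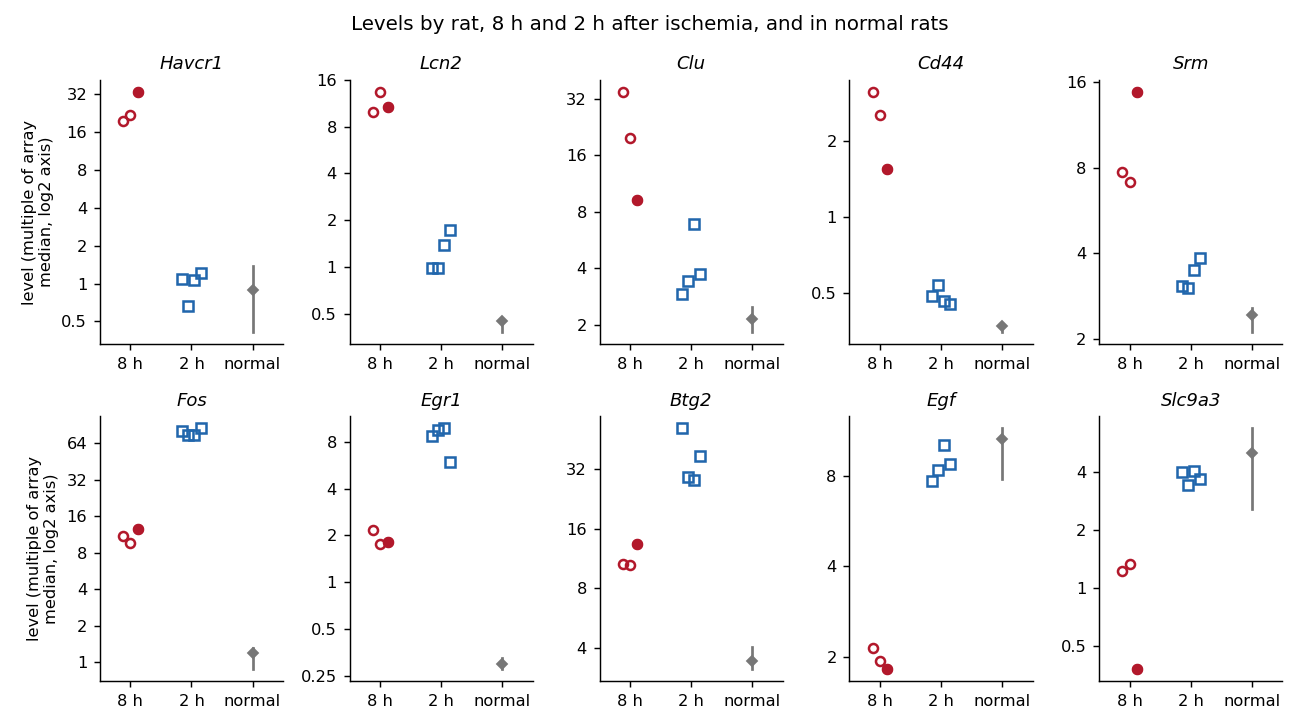
Level of 10 genes by rat, as multiples of the array median on a log2 axis that differs between panels, at 8 h (red circles, rat 3 filled), at 2 h (blue squares) and in 3 normal rats (grey, median and range). Upper row: injury genes and Srm, each higher in all 8 h rats than in all 2 h rats; lower row: Fos, Egr1 and Btg2, which at 8 h lie between the 2 h and normal levels, and Egf and Slc9a3, which at 8 h lie below both.

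Promoters of immediate early genes are shown because their genes fell together and because they carry letters known to bind the factors of the early response. Sequences from RefSeq (rat build GRCr8), a window of fixed length around the annotated start, were available for 12 of the 18 genes. The CArG box, the core of the serum response element, was found on either strand in 4 of the 12 (33.3%), those of Egr1, Egr2, Klf6 and Zfp36, against 1.6% of all 27457 promoters of that length. The cAMP response element TGACGTCA was found in 3 of the 12 (25.0%), those of Btg2, Ier2 and Jund, against 1.9% of all promoters. These matches describe the letters only. Capitals mark the CArG box of Zfp36, which starts at position -32 from the annotated start, and the cAMP response element of Btg2 at -201. Zfp36 lies on the minus strand at chr1:92799059-92799358 and Btg2 on the minus strand at chr13:48087641-48087940, and both are printed 5′ to 3′ along the gene.
Zfp36: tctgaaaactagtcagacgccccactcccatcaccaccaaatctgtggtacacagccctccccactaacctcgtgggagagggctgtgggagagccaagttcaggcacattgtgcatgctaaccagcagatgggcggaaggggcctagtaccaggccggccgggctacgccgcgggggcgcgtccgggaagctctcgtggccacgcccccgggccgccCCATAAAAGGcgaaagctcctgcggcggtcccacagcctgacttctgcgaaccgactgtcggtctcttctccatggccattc
Btg2: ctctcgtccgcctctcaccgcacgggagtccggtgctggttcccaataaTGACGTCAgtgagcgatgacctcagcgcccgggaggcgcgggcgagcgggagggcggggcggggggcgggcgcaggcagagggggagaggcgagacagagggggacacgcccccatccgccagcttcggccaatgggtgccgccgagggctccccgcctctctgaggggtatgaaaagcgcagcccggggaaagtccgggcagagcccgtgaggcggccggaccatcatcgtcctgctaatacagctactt
Zfp36 (tristetraprolin), which speeds the decay of cytokine messages, was chosen for its sequence after its values were seen. It averaged 3.52 ± 0.39 (SD, n = 3) at 8 h and 4.37 ± 0.14 (SD, n = 4) at 2 h on the log2 scale, a difference of -0.85 ± 0.30 (SE, adjusted p = 0.0273). Of the other genes with these motifs, the differences of Klf6 (-0.96, adjusted p = 0.0642), Ier2 (-0.73, adjusted p = 0.154), Egr2 (-0.54, adjusted p = 0.499) and Jund (0.11, adjusted p = 0.595) were not called. With the replicate number as a block, Klf6 (adjusted p = 0.00384) and Ier2 (adjusted p = 0.0114) were called lower.

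Of 14 genes of tubular injury, 7 were called higher and 1 lower, with a median of 1.03, and 9 were called higher without 8 h rat 3 (median 1.64). Havcr1 encodes kidney injury molecule 1, a receptor that lets injured proximal tubule cells take up dead cells. Its levels were 19.6, 22 and 33.6 at 8 h against 1.08, 0.669, 1.07 and 1.21 at 2 h, a 24.8-fold difference (4.63 ± 0.39, adjusted p = 1.94e-09). The 2 h rats lay within the normal range of 0.411 to 1.38, and all 8 h rats lay above it. Lcn2 encodes neutrophil gelatinase-associated lipocalin, which binds bacterial siderophores and serves as an injury marker. Its levels were 10, 13.4 and 10.7 at 8 h against 0.990, 0.988, 1.38 and 1.73 at 2 h (9.13-fold, 3.19 ± 0.22, adjusted p = 6.15e-11), with 0.382 to 0.460 in normal rats.

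Clu and Cd44 rose less evenly. Clu (clusterin, an extracellular chaperone) had levels of 35.0, 19.8 and 9.24 at 8 h against 2.90, 3.42, 6.91 and 3.70 at 2 h (4.65-fold, 2.22 ± 0.31, adjusted p = 3.45e-06). Rat 3 was the lowest of the 8 h rats and lay not far above 2 h rat 3. Cd44, a receptor for hyaluronan that appears on regenerating tubules, had levels of 3.14, 2.53 and 1.55 at 8 h against 0.487, 0.540, 0.464 and 0.453 at 2 h (4.77-fold, 2.25 ± 0.18, adjusted p = 6.67e-10). Spp1 (osteopontin) was 69.2 and 85.0 in 8 h rats 1 and 2 but 13.5 in rat 3, against 29.6, 17.6, 25.5 and 21.1 at 2 h. It was not called over all rats (0.90 ± 0.40, adjusted p = 0.0781) and was called without 8 h rat 3 (1.74, adjusted p = 3.06e-05). Cdh2 (N-cadherin, an adhesion molecule) was the member called lower, at 0.649, 0.654 and 1.06 in 8 h rats against 1.19, 1.3, 1.4 and 1.26 in 2 h rats (-0.75 ± 0.21, adjusted p = 0.00609).

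In the epidermal growth factor system 1 ligand fell while another ligand and the receptor rose. Egf, made in the thick ascending limb and distal tubule, had levels of 2.13, 1.94 and 1.82 at 8 h against 7.67, 8.34, 10.1 and 8.79 at 2 h (4.43-fold lower, -2.15 ± 0.17, adjusted p = 1.32e-09). At 2 h it was still near the normal 7.81 to 11.5. Its receptor Egfr was 0.504, 0.511 and 0.968 at 8 h against 0.317, 0.314, 0.345 and 0.405 at 2 h (0.87 ± 0.21, adjusted p = 0.00208, or 0.56 without 8 h rat 3). Another ligand of that receptor, Tgfa, was 0.255, 0.198 and 0.321 at 8 h against 0.129, 0.152, 0.132 and 0.142 at 2 h (0.87 ± 0.14, adjusted p = 2.23e-05). Of the 7 genes tested, 2 were called higher and 1 lower.

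Genes that build ribosomes and polyamines rose together. Of 11 tested, 9 were called higher and none lower, with a median of 1.08. Without 8 h rat 3 9 were called, and with the replicate number as a block 8, without Dkc1 (adjusted p = 0.0939). Polr1b, the second largest subunit of RNA polymerase I, was 1.83, 1.78 and 2.89 at 8 h against 0.595, 0.541, 0.488 and 0.647 at 2 h (3.74-fold, 1.90 ± 0.17, adjusted p = 3.46e-09). Gar1, a protein of the small nucleolar particles that make pseudouridine in ribosomal RNA, was 5.84, 5.86 and 11.4 at 8 h against 1.97, 2.08, 1.87 and 2.44 at 2 h (1.81 ± 0.18, adjusted p = 3.29e-08). Npm1 (nucleophosmin, a nucleolar chaperone) was 50.3, 52.2 and 86.4 at 8 h against 19.2, 18.0, 18.6 and 19.5 at 2 h (1.70 ± 0.13, adjusted p = 4.35e-10). Srm (spermidine synthase) was 7.72, 7.13 and 14.8 at 8 h against 3.08, 3.03, 3.50 and 3.84 at 2 h (1.48 ± 0.17, adjusted p = 3.00e-07). In all 4 genes rat 3 was the highest of the 8 h rats and rats 1 and 2 were close to each other. Odc1, the first enzyme of the polyamine pathway, and Nip7 were the members not called.

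The promoters of Srm and of Fbl, the rRNA methyltransferase fibrillarin, are shown for the E-box CACGTG, the letters bound by Myc and by clock factors. Among the 11 members with a promoter sequence, 3 held it (27.3%), Srm, Fbl and Dkc1, against 6.7% of all promoters and 9.0% of those of tested genes. The E-box is in capitals, at position -173 in Srm (chr5:164308752-164309051, plus strand) and at position 21 in Fbl (chr1:92597157-92597456, plus strand).
Srm: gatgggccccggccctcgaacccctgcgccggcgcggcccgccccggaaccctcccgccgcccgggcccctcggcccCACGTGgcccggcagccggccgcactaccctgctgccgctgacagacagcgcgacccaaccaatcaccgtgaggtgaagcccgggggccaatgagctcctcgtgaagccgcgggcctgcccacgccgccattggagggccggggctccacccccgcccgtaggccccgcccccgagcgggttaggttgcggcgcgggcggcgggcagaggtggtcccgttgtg
Fbl: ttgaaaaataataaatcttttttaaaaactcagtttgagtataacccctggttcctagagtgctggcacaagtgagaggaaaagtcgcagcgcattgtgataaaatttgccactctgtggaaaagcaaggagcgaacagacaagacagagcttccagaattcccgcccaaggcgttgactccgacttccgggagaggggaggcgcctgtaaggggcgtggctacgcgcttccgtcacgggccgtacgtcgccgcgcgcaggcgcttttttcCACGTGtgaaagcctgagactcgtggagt
Fbl, chosen for its sequence after its values were seen, averaged 3.61 ± 0.13 (SD, n = 3) at 8 h and 2.23 ± 0.10 (SD, n = 4) at 2 h on the log2 scale, a difference of 1.39 ± 0.10 (SE, adjusted p = 2.35e-10).

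Proteasome genes rose modestly and as a group. Of 22 tested, 16 were called higher and none lower, with a median of 0.54 and a range of -0.27 to 0.94. Without 8 h rat 3 the calls were 14 and the median 0.37. Psmd1, a subunit of the regulatory cap, was 1.07, 1.13 and 2.25 at 8 h against 0.761, 0.686, 0.721 and 0.732 at 2 h (0.94 ± 0.17, adjusted p = 7.48e-05, or 0.60 without 8 h rat 3). Psmc3, an ATPase of the base, was 12.0, 12.4 and 16.9 at 8 h against 8.22, 8.11, 9.85 and 9.69 at 2 h (0.61 ± 0.10, adjusted p = 5.29e-05). The 8 h rats 1 and 2 lay just above the 2 h rats in both genes, and rat 3 further above.

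**Figure D3:**
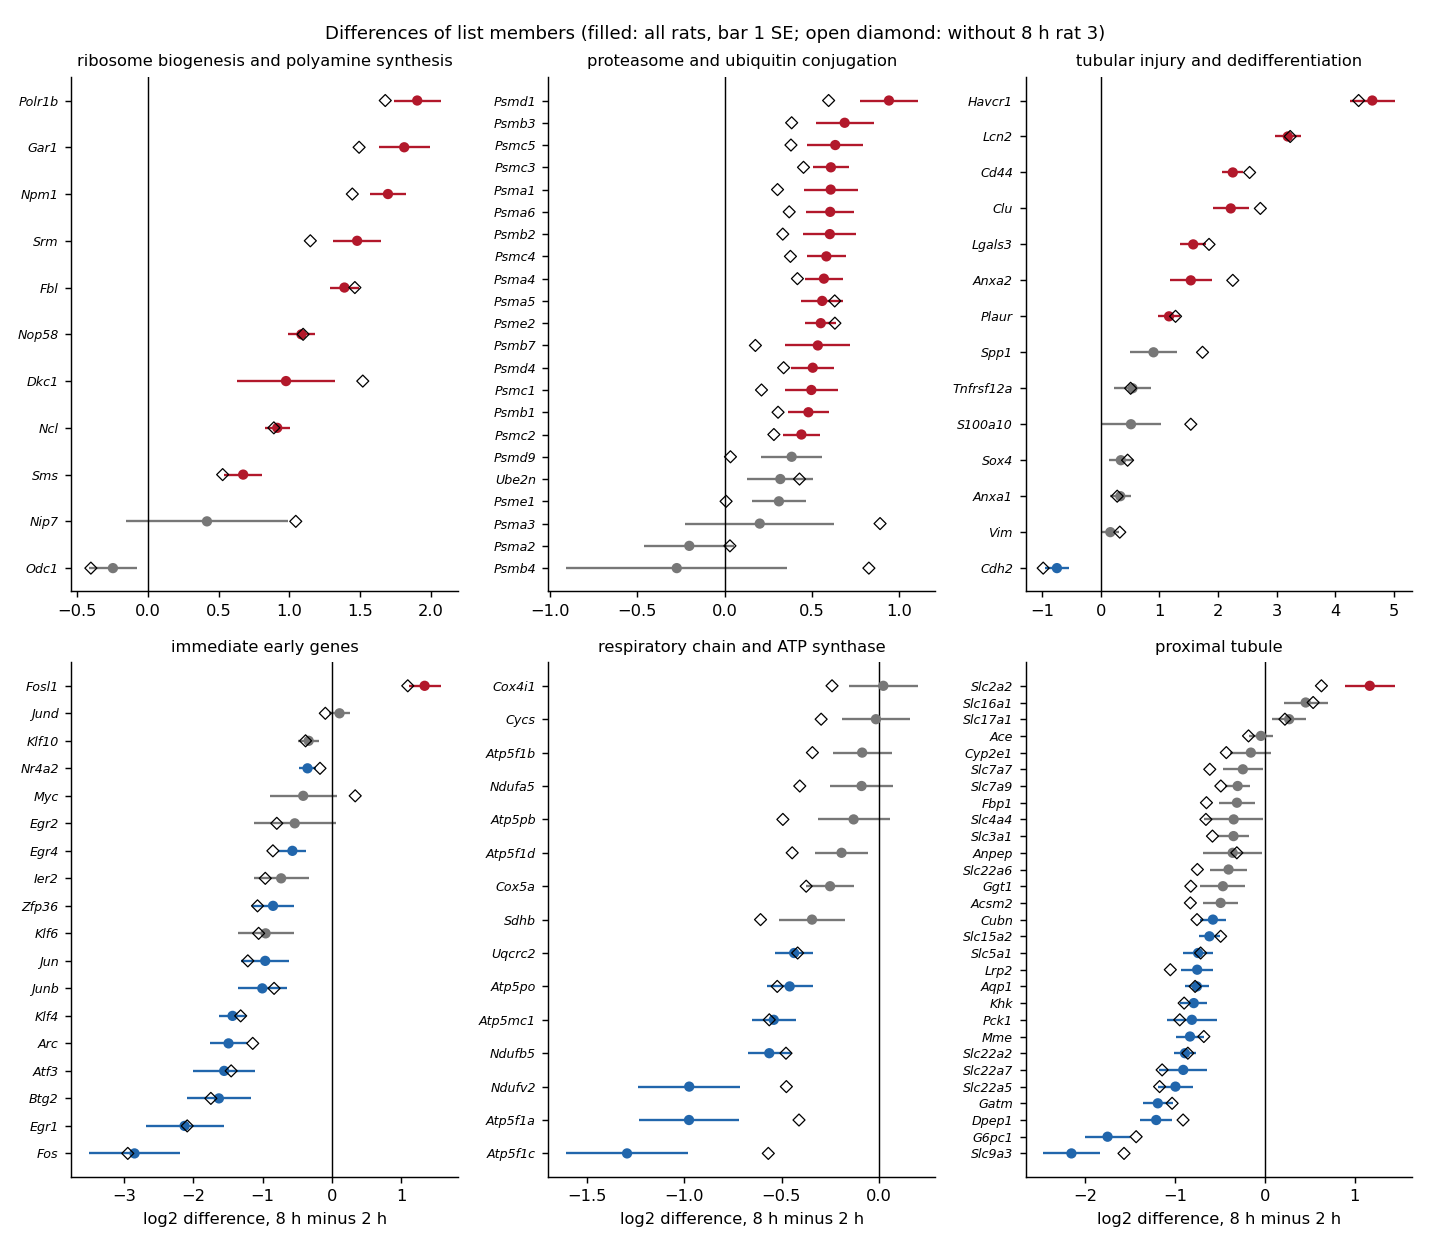
Log2 difference, 8 h minus 2 h, of every tested member of 6 gene lists, with 1 SE (red: called higher, blue: called lower, grey: not called) and the difference without 8 h rat 3 (open diamonds). Leaving out rat 3 moved most proximal tubule genes further down (median -0.58 with it and -0.75 without it) and most proteasome genes closer to 0 (0.54 and 0.37).

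Stress genes did not move as a block. Of the heat shock genes, Hspa1a, the main inducible cytosolic chaperone, was 82.8, 96.4 and 84.8 at 8 h against 91.4, 88.7, 99.6 and 97.0 at 2 h, with 1.28 to 1.64 in normal rats. The groups overlapped and the 95% interval of the difference, from the spread pooled over all groups, was -0.77 to 0.57. Of 9 heat shock genes, only Hspb8 was called higher (0.70, adjusted p = 0.0154), and that call was lost with the replicate number as a block (adjusted p = 0.0661) and when 8 h rat 2 or 2 h rat 1 or 2 was left out (adjusted p up to 0.0809). Without 8 h rat 3, Bag3 (0.67, adjusted p = 0.0208) and Hspd1 (0.37, adjusted p = 0.00794) were called higher too.

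Oxidative stress genes included strong risers. Hmox1 (heme oxygenase 1) was 21.2, 23.9 and 55.9 at 8 h against 7.44, 7.10, 13.2 and 10.6 at 2 h (1.72 ± 0.28, adjusted p = 2.70e-05), with 0.814 to 0.904 in normal rats. Nqo1, a quinone reductase, was 3.45, 3.25 and 1.58 at 8 h against 0.979, 0.4, 0.832 and 1.08 at 2 h (1.76 ± 0.36, adjusted p = 0.000412). Txnrd1 (thioredoxin reductase 1) was 0.899, 1.07 and 3.84 at 8 h against 0.501, 0.373, 0.492 and 0.555 at 2 h (1.70 ± 0.32, adjusted p = 0.000154, or 1.05 without 8 h rat 3). Gpx2, a selenium-dependent glutathione peroxidase that is in none of the lists, was 18.3, 14.8 and 23.4 at 8 h against 4.99, 3.15, 2.84 and 2.20 at 2 h (5.88-fold, 2.56 ± 0.55, adjusted p = 0.000649). Gclc, the catalytic subunit of the enzyme that starts glutathione synthesis, went the other way, at 53, 49.9 and 80.9 in 8 h rats against 94.1, 92.4, 97.9 and 112 in 2 h rats (-0.73 ± 0.18, adjusted p = 0.00248), and its second probe gave -1.78. Srxn1 (sulfiredoxin) overlapped between the groups (0.35, adjusted p = 0.322). In all, 4 of 16 were called higher and 2 lower, with a median of 0.33 (-0.06 without 8 h rat 3).

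Genes of the unfolded protein and integrated stress response were mostly flat or lower. Of 16 tested, 5 were called lower and 2 higher, with a median of 0.08. Herpud1, a part of the machinery that destroys misfolded proteins of the endoplasmic reticulum, was 22.7, 21.1 and 14.2 at 8 h against 44.3, 37.5, 45.7 and 48.7 at 2 h (-1.21 ± 0.16, adjusted p = 1.56e-06). Chac1, which degrades glutathione, was 1.54, 1.93 and 1.53 at 8 h against 3.08, 2.26, 3.43 and 4.21 at 2 h (-0.94 ± 0.18, adjusted p = 0.000188), with 0.158 to 0.213 in normal rats. Hspa5, the main chaperone of the endoplasmic reticulum, was 59.7, 58.8 and 44.4 at 8 h against 71.0, 67.8, 77.5 and 79.9 at 2 h (-0.46 ± 0.17, adjusted p = 0.0387). The Hspa5 call was lost with the replicate number as a block (adjusted p = 0.103) and without 8 h rat 3 or 2 h rat 1, 3 or 4 (adjusted p up to 0.193).

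Of p53 targets and apoptosis genes, 4 of 13 were called higher and 3 lower. Phlda3, a p53 target that restrains Akt, was 2.94, 2.43 and 2.83 at 8 h against 1.29, 1.29, 1.22 and 1.49 at 2 h (1.05 ± 0.12, adjusted p = 3.01e-07). Sesn1, another p53 target, fell to 0.981, 0.909 and 1.26 in 8 h rats, against 2.08, 1.92, 2.33 and 1.80 in 2 h rats (-0.96 ± 0.11, adjusted p = 4.12e-07). Cdkn1a (p21), which arrests the cell cycle, was 8.03, 11.5 and 11.8 at 8 h against 13.4, 12.2, 11.8 and 12.0 at 2 h (-0.26 ± 0.33, adjusted p = 0.564), above the normal 1.25 to 2.51 at both times. Of 16 cell cycle genes 1 was called higher and 3 lower, and without 8 h rat 3 none higher and 5 lower. The proliferation marker Mki67 was 0.536, 0.657 and 0.309 at 8 h against 0.897, 0.994, 0.756 and 0.780 at 2 h (-0.84 ± 0.23, adjusted p = 0.00554), a call that was lost without 8 h rat 3 (-0.52, adjusted p = 0.0724).

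Inflammatory mediators split into a few strong risers and a majority that did not differ. Of 21 cytokines, chemokines and adhesion molecules, 3 were called higher and 1 lower, with a median of 0.25. Il24, a cytokine of the interleukin 10 family, was 3.19, 2.18 and 2.55 at 8 h against 0.317, 0.253, 0.348 and 0.295 at 2 h (8.65-fold, 3.11 ± 0.20, adjusted p = 3.28e-11), and lay at the floor in the normal rats. Il1b was 1.21, 1.85 and 0.818 at 8 h against 0.256, 0.376, 0.556 and 0.342 at 2 h (3.33-fold, 1.74 ± 0.26, adjusted p = 8.53e-06). Cxcl12, a chemokine made constitutively by stromal and tubule cells, was 6.66, 7.38 and 10.1 at 8 h against 28.3, 20.3, 21.7 and 27.5 at 2 h (3.06-fold lower, -1.61 ± 0.16, adjusted p = 1.85e-08). The Ccl4 call (1.41, adjusted p = 0.0363) was lost with the replicate number as a block (adjusted p = 0.111) and without any one of 8 h rats 1 and 2 and 2 h rats 1, 2 and 4.

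Ccl2, Cxcl1 and Il6, classic early mediators, overlapped between the times, and all rats but 1 lay above the normal range. Ccl2, which draws monocytes, was 19.0, 8.91 and 0.969 at 8 h against 3.34, 5.61, 9.47 and 3.26 at 2 h (0.16 ± 0.60, adjusted p = 0.86). The 8 h rat 3 lay within the normal range of 0.764 to 1.70, below every 2 h rat, and the difference was called without that rat (1.41, adjusted p = 0.0111). Cxcl1, which draws neutrophils, was 3.52, 3.27 and 2.18 at 8 h against 1.42, 2.13, 5.15 and 1.52 at 2 h (adjusted p = 0.489), and Il6 was 2.11, 0.918 and 0.796 at 8 h against 0.775, 1.11, 2.32 and 0.667 at 2 h (adjusted p = 0.842). In each of these 3 genes, rat 3 was the highest of the 2 h rats.

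Neutrophil and macrophage markers were higher at 8 h. Of 6 neutrophil markers 4 were called higher and none lower, and without 8 h rat 3 Il1r2 was called lower (-0.645, adjusted p = 0.00973). The call of Cxcr2 rests on 2 h levels near the floor (0.1 to 0.131) and was lost with a floor of 0.2 (adjusted p = 0.43). The summed level of the list was 18.2, 11.0 and 10.2 in the 8 h rats against 5.05 to 5.80 in the 2 h rats and 3.36 to 4.08 in normal rats. In the sham rats at 8 h, on a different array lot, it was 6.11 to 6.98. At 2 h after ischemia the sum was thus above the normal range, although by the labels leukocytes have not yet entered then. S100a9 made up a large part of it at 8 h. S100a9, a calcium-binding protein abundant in neutrophils, was 11.6, 6.53 and 5.09 at 8 h against 2.31, 2.88, 2.80 and 2.40 at 2 h (1.49 ± 0.43, adjusted p = 0.00751), a call lost without 8 h rat 1 (adjusted p = 0.0537). Of 11 macrophage and dendritic cell markers 8 were called higher and 1 lower, with a median of 0.79. Without 8 h rat 3, 8 were called higher and none lower, with Cd14 lost (adjusted p = 0.0781) and Lyz2 gained (adjusted p = 0.0263). The subunits of complement C1q moved together: C1qb was 9.11, 11.1 and 12.2 at 8 h against 4.24, 3.70, 4.02 and 5.23 at 2 h (1.33 ± 0.23, adjusted p = 5.08e-05), and C1qa and C1qc differed by 1.24 each. The summed level of the macrophage list was 102 to 109 in the 8 h rats against 76.9 to 97.6 in the 2 h rats and 89.9 to 101 in normal rats. Of 11 lymphocyte and mast cell markers 2 were called higher and none lower, a share of 18.2% against 21.5% of all genes. Their summed level was 1.73, 1.66 and 2.91 in 8 h rats 1, 2 and 3 against 1.43 to 1.67 in the 2 h rats, and Cd4, Cpa3, Tpsab1 and Fcer1a lay at the floor in most rats. In whole kidney RNA, more cells of a type and more RNA per cell cannot be told apart, and this holds for every cell type marker here. The neutrophil and macrophage markers moved with the rise of Il1b and Lcn2, and their part in those results was not tested.

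Functions of the proximal tubule were lower at 8 h. Of 29 tested genes, 15 were called lower and 1 higher, with a median of -0.58, and 22 were called lower without 8 h rat 3. The summed level was 332, 352 and 503 in the 8 h rats against 498 to 605 in the 2 h rats and 614 to 844 in normal rats. Slc9a3, the apical sodium-hydrogen exchanger NHE3, was 1.22, 1.33 and 0.378 at 8 h against 3.99, 3.45, 4.05 and 3.68 at 2 h (4.45-fold lower, -2.15 ± 0.31, adjusted p = 7.51e-06). G6pc1, the last enzyme of glucose production, was 10.3, 7.21 and 4.45 at 8 h against 22.9, 24.2, 24.0 and 22 at 2 h (3.37-fold lower, -1.75 ± 0.25, adjusted p = 5.75e-06). Dpep1, a brush border dipeptidase, was 0.466, 0.489 and 0.257 at 8 h against 0.939, 0.954, 0.848 and 0.856 at 2 h (-1.21 ± 0.18, adjusted p = 7.71e-06). Gatm, which makes the creatine precursor, was 25.5, 24.6 and 18.0 at 8 h against 52.2, 50.4, 56.9 and 46.3 at 2 h (-1.19 ± 0.17, adjusted p = 4.81e-06), although its dimmer probe gave 0.13. These 4 genes were named as the largest called falls of the list, and in each no 8 h rat reached the level of any 2 h rat. That held for 14.3% of all genes. Other members called lower, such as Lrp2 and Cubn, overlapped between the groups.

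One proximal tubule gene rose. Slc2a2, the basolateral glucose transporter GLUT2, was 3.81, 5.34 and 13.8 at 8 h against 2.63, 2.97, 2.64 and 3.52 at 2 h (1.17 ± 0.28, adjusted p = 0.00178), and 0.63 without 8 h rat 3 (adjusted p = 0.0255). The glucagon receptor Gcgr, in none of the lists, fell to 0.300, 0.266 and 0.352 in 8 h rats, against 1.56, 1.21, 1.47 and 1.59 in 2 h rats (4.76-fold lower, -2.25 ± 0.13, adjusted p = 7.74e-12), and its second probe gave -2.01.

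Further along the nephron, 7 of 21 genes were called lower and 2 higher, with a median of -0.30, and without 8 h rat 3 10 were called lower and 2 higher, with a median of -0.53. The summed level was 230, 264 and 488 in 8 h rats 1, 2 and 3, against 322 to 348 in the 2 h rats and 343 to 436 in normal rats. By this sum 8 h rat 3 lay above every 2 h and normal rat. Slc12a1, the sodium-potassium-chloride cotransporter of the thick ascending limb, was 7.28, 6.89 and 17.5 at 8 h against 26.4, 25.0, 27.9 and 26.3 at 2 h (2.75-fold lower, -1.46 ± 0.21, adjusted p = 6.52e-06). Umod, the most abundant protein of that segment, was 28.1, 33.9 and 2.29 at 8 h against 55.9, 46.7, 48.4 and 37.8 at 2 h (-1.85 ± 0.66, adjusted p = 0.0291). The Umod call was lost without 8 h rat 3 (-0.60, adjusted p = 0.411), was also lost without any one of 2 h rats 1, 2 and 3, and did not hold with the replicate number as a block (adjusted p = 0.113). Rat 3 was thus the highest 8 h rat for Slc12a1 and the lowest for Umod. Ptger3, a prostaglandin E2 receptor, was 4.20, 4.14 and 4.93 at 8 h against 2.24, 1.99, 2.33 and 1.91 at 2 h (2.09-fold, 1.07 ± 0.12, adjusted p = 1.90e-07), and its second probe gave 1.10. Slc26a4 (pendrin), a chloride-bicarbonate exchanger of intercalated cells, was 2.37, 1.96 and 3.16 at 8 h against 1.21, 1.18, 1.46 and 1.57 at 2 h (0.86 ± 0.22, adjusted p = 0.00294). Cldn10, a claudin of tubule tight junctions, was 4.68, 4.93 and 0.515 at 8 h against 13.3, 11.4, 9.73 and 7.67 at 2 h (-2.18 ± 0.48, adjusted p = 0.000841, or -1.10 without 8 h rat 3).

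Many genes of fatty acid oxidation fell: of 21 tested, 15 were called lower and none higher, with a median of -0.63 (14 lower and -0.76 without 8 h rat 3). Those not called included the genes that carry fatty acids into mitochondria, Cpt1a (0.10), Cpt2 (0.26) and Slc25a20 (0.00). Ehhadh, the bifunctional enzyme of peroxisomes, was 1.61, 1.67 and 1.45 at 8 h against 5.48, 5.05, 4.50 and 5.59 at 2 h (3.26-fold lower, -1.71 ± 0.22, adjusted p = 1.31e-06). Hadh, a mitochondrial dehydrogenase, was 6.92, 8.31 and 10.4 at 8 h against 16.2, 15.5, 16.1 and 16.2 at 2 h (-0.92 ± 0.12, adjusted p = 1.87e-06). At 2 h Ehhadh and Hadh were near or below their normal ranges of 5.51 to 9.62 and 17.4 to 19.8. Etfb, an electron carrier of the pathway, was 4.55, 5.22 and 0.740 at 8 h against 7.57, 7.66, 8.39 and 7.34 at 2 h, and its call (-1.57, adjusted p = 0.00762) was lost without 8 h rat 3 (-0.67, adjusted p = 0.129).

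The respiratory chain and ATP synthase moved the same way but less. Of 15 genes 7 were called lower and none higher, with a median of -0.34, and 12 were called lower without 8 h rat 3. Ndufb5, a subunit of complex I, was 17.4, 17.8 and 14.7 at 8 h against 26.9, 26.3, 24.2 and 21 at 2 h (-0.56 ± 0.11, adjusted p = 0.000266). Atp5f1c, a subunit of ATP synthase, was 28.5, 31.7 and 6.63 at 8 h against 48.0, 46.0, 44.2 and 40.2 at 2 h (-1.3 ± 0.31, adjusted p = 0.00197), and -0.57 without 8 h rat 3 (adjusted p = 0.0104).

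Glycolytic and hypoxia genes did not move as a block, with 5 of 19 called higher and 5 lower. Pkm, the last kinase of glycolysis, was 18.1, 15.3 and 15.5 at 8 h against 3.51, 4.23, 5.51 and 4.56 at 2 h (3.70-fold, 1.89 ± 0.14, adjusted p = 1.82e-10). Ldha, which makes lactate, was 58.4, 66.3 and 125 at 8 h against 25.4, 26.2, 32.2 and 39.5 at 2 h (2.59-fold, 1.37 ± 0.20, adjusted p = 6.00e-06), and its second probe gave 1.21. Vegfa, the hypoxia-induced endothelial growth factor, was 9.13, 8.15 and 4.60 at 8 h against 15.9, 13.6, 12.4 and 14.3 at 2 h (-1.0 ± 0.15, adjusted p = 9.11e-06). The glucose transporter Slc2a1 (GLUT1) was 5.00, 3.76 and 2.14 at 8 h against 5.48, 5.89, 5.16 and 7.43 at 2 h (-0.79 ± 0.20, adjusted p = 0.0027, or -0.45 without 8 h rat 3).

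Some glucocorticoid-responsive and clock genes were lower at 8 h. Of 8 glucocorticoid-responsive genes 4 were called lower and none higher, with a median of -0.65, and of 9 clock genes 4 were called lower and none higher, with a median of -0.64 (-0.28 without 8 h rat 3). Tsc22d3 (GILZ), a mediator of glucocorticoid action, was 1.22, 1.31 and 0.792 at 8 h against 3.35, 2.72, 2.64 and 2.72 at 2 h (2.63-fold lower, -1.4 ± 0.20, adjusted p = 7.33e-06), with 1.09 to 1.61 in normal rats. Per1, a clock gene that glucocorticoids also induce and that is in both lists, was 0.756, 0.866 and 1.76 at 8 h against 2.75, 2.52, 2.02 and 3.43 at 2 h (-1.33 ± 0.21, adjusted p = 2.17e-05). Klf9 was 0.651, 0.688 and 1.27 at 8 h against 2.27, 1.98, 1.66 and 1.86 at 2 h (-1.22 ± 0.21, adjusted p = 6.34e-05), and Bmal1, a core activator of the clock, was 1.06, 1.22 and 1.3 at 8 h against 2.57, 3.21, 1.99 and 2.20 at 2 h (-1.04 ± 0.30, adjusted p = 0.00824). Dbp, a clock output gene, was not called (-0.36, adjusted p = 0.161). The labels give no hour of harvest, so time after reperfusion and time of day cannot be told apart.

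Matrix, vessel and cytoskeleton genes changed gene by gene. Ccn1 and Ccn2, matricellular proteins induced by stretch and Yap signalling, were both lower: Ccn1 was 2.08, 0.828 and 1.10 at 8 h against 7.14, 5.80, 3.79 and 3.97 at 2 h (4.05-fold lower, -2.02 ± 0.27, adjusted p = 2.62e-06), and Ccn2 was 12.2, 10.1 and 7.23 at 8 h against 33.0, 29.7, 26.0 and 26.8 at 2 h (-1.58 ± 0.26, adjusted p = 3.46e-05). Tgfb1, a profibrotic cytokine, was 0.602, 0.429 and 0.654 at 8 h against 0.240, 0.239, 0.243 and 0.244 at 2 h (2.29-fold, 1.19 ± 0.13, adjusted p = 1.30e-07). Of 17 matrix genes 2 were called higher and 3 lower. Among 16 cytoskeleton genes 6 were called higher and 1 lower, and Tubb5, a beta tubulin, was 8.41, 6.86 and 8.76 at 8 h against 3.49, 2.85, 2.89 and 3.25 at 2 h (2.56-fold, 1.36 ± 0.18, adjusted p = 1.36e-06). Tagln, a smooth muscle actin-binding protein, was 6.07, 6.74 and 8.00 at 8 h against 14.5, 12.2, 13.3 and 15.5 at 2 h (-1.0 ± 0.16, adjusted p = 2.51e-05).

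Of 11 endothelial markers 4 were called higher and 2 lower, and 2 and 0 without 8 h rat 3. Procr, the endothelial protein C receptor, was 1.91 and 1.37 in 8 h rats 1 and 2 against 0.458, 0.491, 0.687 and 0.559 at 2 h (1.58 ± 0.25, adjusted p = 2.17e-05), and had no value in 8 h rat 3. Of 7 glomerular markers 3 were called higher and 1 lower, and of 8 fibroblast and smooth muscle markers 1 was called higher and 3 lower. In renin-angiotensin, endothelin and sodium handling, 1 of 13 genes was called higher and 3 lower, and the riser was Npr1, the receptor of atrial natriuretic peptide, at 3.20, 3.13 and 2.33 in 8 h rats against 1.62, 1.87, 2.07 and 1.92 in 2 h rats (0.62 ± 0.12, adjusted p = 0.000286). Among 10 cholesterol synthesis genes, 2 were called higher and 1 lower. The remaining list, 3 red blood cell markers, had 1 called lower, Slc4a1 (-0.55), which is also counted among the genes of later nephron segments. Other genes stand in more than 1 list too, among them Btg2, Vegfa, Egf, Tagln and Col1a1.

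Leaving out 8 h rat 3 also moved the counts of other lists. Without it, 5 cytokine genes were called higher and 1 lower, 8 cytoskeleton genes higher and 1 lower, and 2 fibroblast and smooth muscle markers higher and 3 lower. Hypoxia and glycolysis genes had 3 higher and 5 lower, p53 and apoptosis genes 3 and 2, unfolded protein response genes 3 and 4, and oxidative stress genes 4 and 3. The EGF receptor list had 2 higher and 2 lower, matrix genes 2 and 4, glomerular markers 2 and 2, the renin-angiotensin list 1 and 2, cholesterol synthesis genes 1 and 1, and lymphocyte markers 1 and 0. With the replicate number as a block, hypoxia and glycolysis genes had 4 higher and 3 lower, endothelial markers 4 and 1, cytoskeleton genes 6 and 2, cholesterol synthesis genes 1 and 1, and lymphocyte markers 1 and 0. Macrophage markers then had 7 higher and 0 lower, matrix genes 2 and 2, the renin-angiotensin list 1 and 2, cytokine genes 2 and 1, and unfolded protein response genes 2 and 4. Fewer genes of some lists could be tested with the block. Later nephron segments had 2 higher and 5 lower of 20, oxidative stress genes 5 and 1 of 15, and fatty acid oxidation genes 0 and 14 of 20.

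The largest rises outside these groups included genes not usually read as injury markers. Rdm1, an RNA-binding protein linked to DNA repair, had levels of 11.3, 21.2 and 12.9 at 8 h against 0.901, 0.802, 1.01 and 0.982 at 2 h, a 15.9-fold difference (3.99 ± 0.20, adjusted p = 9.71e-13), with 0.971 to 1.33 in normal rats. Apln (apelin), a vasoactive peptide, was 7.47, 5.50 and 5.39 at 8 h against 0.820, 1.06, 1.17 and 0.970 at 2 h (6.07-fold, 2.60 ± 0.22, adjusted p = 1.94e-09), and its second probe gave 2.16. At 2 h both genes were near their normal levels. Gabrp, a GABA receptor subunit found in epithelia, was 3.27, 3.16 and 1.16 at 8 h against 0.371, 0.398, 0.614 and 0.495 at 2 h (2.31 ± 0.28, adjusted p = 4.35e-07). Mthfd1l, an enzyme of mitochondrial one-carbon metabolism, was 1.69, 1.38 and 2.22 at 8 h against 0.331, 0.371, 0.343 and 0.389 at 2 h (2.27 ± 0.14, adjusted p = 1.83e-11). Etv4, an ETS transcription factor active in kidney development, was 0.841, 0.599 and 0.615 at 8 h against 0.133, 0.149, 0.168 and 0.146 at 2 h (2.19 ± 0.14, adjusted p = 3.07e-11). Kcnj8, a subunit of ATP-sensitive potassium channels, was 4.81, 2.21 and 2.69 at 8 h against 0.661, 0.640, 1.23 and 0.697 at 2 h (1.98 ± 0.22, adjusted p = 1.76e-07).

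Ugt2b7 and Akr1b8, enzymes that conjugate and reduce xenobiotics, varied among the 8 h rats. Ugt2b7 was 0.676, 1.22 and 5.50 at 8 h against 0.145, 0.168, 0.411 and 0.191 at 2 h (2.99 ± 0.59, adjusted p = 0.000292). Akr1b8 was 7.85, 18.6 and 27.2 at 8 h against 1.52, 2.28, 3.48 and 2.73 at 2 h (2.73 ± 0.94, adjusted p = 0.0239). The Akr1b8 call was lost without 8 h rat 2, 8 h rat 3 or 2 h rat 1 (adjusted p up to 0.0907) and with the replicate number as a block (adjusted p = 0.0593). Both belong to families with close paralogs, which a single probe may not tell apart.

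Large falls were also seen in genes outside these groups. Ppp1r1a, an inhibitor of protein phosphatase 1, was 0.975, 0.920 and 1.57 at 8 h against 7.25, 7.52, 7.15 and 7.55 at 2 h (6.57-fold lower, -2.72 ± 0.16, adjusted p = 1.15e-11), with 8.12 to 10.8 in normal rats. Pofut2, a fucosyltransferase, was 0.185, 0.201 and 0.636 at 8 h against 2.34, 1.46, 1.56 and 2.74 at 2 h (-2.77 ± 0.75, adjusted p = 0.00515). Slc16a7, a monocarboxylate transporter, was 0.395, 0.386 and 0.319 at 8 h against 1.66, 1.48, 1.46 and 1.28 at 2 h (4.01-fold lower, -2.0 ± 0.16, adjusted p = 6.89e-10). Gucy1b2, a subunit of the nitric oxide receptor, was 1.49, 1.06 and 1.24 at 8 h against 4.36, 4.42, 4.41 and 5.87 at 2 h (-1.92 ± 0.20, adjusted p = 4.28e-08). Tppp3, which binds tubulin, was 0.446, 0.421 and 1.07 at 8 h against 1.86, 2.98, 2.02 and 2.71 at 2 h (-2.01 ± 0.26, adjusted p = 1.23e-06). At 2 h it lay above the normal 0.464 to 0.488, and 8 h rats 1 and 2 lay below that range.

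Some falls were larger with 8 h rat 3 than without it. Lactb2, a mitochondrial RNA-cleaving enzyme, was 6.00, 6.47 and 0.989 at 8 h against 13.3, 12.1, 15.3 and 12.2 at 2 h (-1.96 ± 0.38, adjusted p = 0.000223), and -1.08 without rat 3 (adjusted p = 0.000182). Ak4, a mitochondrial adenylate kinase, was 13.5, 12.9 and 3.03 at 8 h against 31.9, 32.9, 29.0 and 29.5 at 2 h (-1.93 ± 0.31, adjusted p = 2.99e-05), and -1.22 without it. Its other probe gave -0.80. In contrast, 8 h rats 1, 2 and 3 were close together for Egf, Gcgr, Slc16a7 and Ehhadh.

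**Figure D4:**
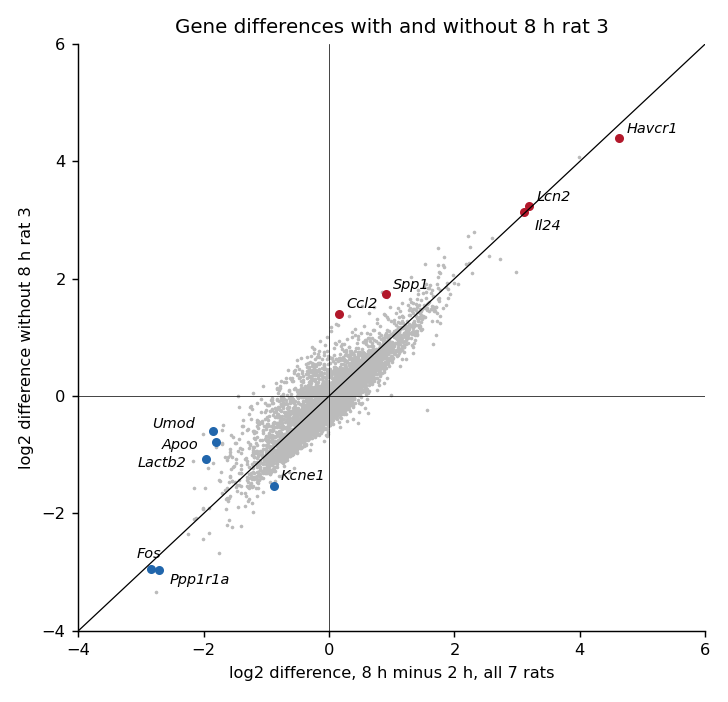
Log2 difference, 8 h minus 2 h, of each gene with all 7 rats (x axis) and without 8 h rat 3 (y axis), with the line of equality and 11 genes named. Havcr1, Lcn2, Il24, Fos and Ppp1r1a lie near the line, while Umod, Apoo and Lactb2 are nearer to 0 and Spp1 and Ccl2 further above 0 without rat 3.

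Whether the change between 2 h and 8 h is shared by another kidney injury was asked with mercuric chloride, a toxin of the proximal tubule, injected under the skin at 4 mg/kg in 3 rats studied at 8 h and 3 studied at 2 h. By a pattern of missing probes, the 8 h mercuric chloride arrays belong to a different array lot from the 2 h ones, so each time was set against the normal rats of its lot before the times were compared. The difference between the 2 time courses was called for 567 of 9383 probes (6.04%), 335 in which ischemia moved higher relative to mercuric chloride (3.57%) and 232 in which it moved lower (2.47%). The time difference of mercuric chloride alone was called for 65 probes (0.693%), 47 higher (0.501%) and 18 lower (0.192%). It also rests on the normal rats, 3 in the lot of the 2 h arrays and 2 in that of the 8 h arrays. Its SE is therefore larger than that of the ischemia difference, as for Havcr1 below. The count of 65 cannot be set beside the count for ischemia. By gene, 378 of 6140 time courses differed (6.16%). Without 8 h ischemia rat 3 the count was 1078 and the balance turned, with 457 higher and 621 lower (42.4% higher, against 59.1% with it). With array weights 1270 were higher and 1354 lower, and without subtracting the normal rats the count was 1800.

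Rdm1 and Havcr1 had the largest gaps toward ischemia. For Havcr1 the difference, 8 h minus 2 h, was 4.63 ± 0.39 after ischemia and 0.76 ± 0.62 after mercuric chloride, and the gap between them was 3.87 ± 0.73 (adjusted p = 0.00212). Its levels were 1.08 to 1.86 at 8 h and 0.621 to 1.2 at 2 h of mercuric chloride. For Rdm1 these differences were 3.99 ± 0.20 after ischemia and -0.16 ± 0.32 after mercuric chloride (gap 4.14 ± 0.37, adjusted p = 4.95e-07), for Il24 3.11 ± 0.20 and 0.08 ± 0.32 (3.04 ± 0.38, adjusted p = 2.34e-05), and for Apln 2.60 ± 0.22 and -0.48 ± 0.35 (3.08 ± 0.41, adjusted p = 4.45e-05). For Il1b the signs were opposite, with 1.74 ± 0.26 after ischemia and -1.03 ± 0.41 after mercuric chloride (gap 2.76 ± 0.48, adjusted p = 0.00108). The Il1b difference after mercuric chloride was not itself called. Without subtracting the normal rats the Il1b gap was 2.41. Of 14 tubular injury genes 3 differed, all toward ischemia, as did 4 of 11 ribosome biogenesis genes, each against 3.60% of genes in that direction.

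Toward mercuric chloride, the named genes included Ppp1r1a and several immediate early and glucocorticoid-responsive genes. Ppp1r1a had -2.72 ± 0.16 after ischemia and 0.04 ± 0.26 after mercuric chloride (gap -2.76 ± 0.31, adjusted p = 6.00e-06). In the same order Tsc22d3 had -1.4 ± 0.20 and 1.68 ± 0.33 (-3.07 ± 0.38, adjusted p = 2.34e-05), Per1 had -1.33 ± 0.21 and 1.77 ± 0.34 (-3.10 ± 0.40, adjusted p = 2.82e-05), and Ccn2 had -1.58 ± 0.26 and 2.47 ± 0.42 (-4.05 ± 0.49, adjusted p = 1.81e-05). Fos had -2.85 ± 0.66 and 2.13 ± 1.06 (-4.97 ± 1.24, adjusted p = 0.0161). Of the mercuric chloride differences named here, limma called those of Tsc22d3 (adjusted p = 0.00917), Per1 (adjusted p = 0.00733) and Ccn2 (adjusted p = 0.00268), but not that of Fos (adjusted p = 0.546). The normal rats of the lots differed in Fos: its levels were 2.37 to 4.00 at 8 h and 1.82 to 3.64 at 2 h of mercuric chloride, while the normal rats of the 8 h lot had 0.224 to 0.459 and those of the 2 h lot 0.879 to 1.31. Without the subtraction the gap was -3.18 in Fos (adjusted p = 0.0214), -2.16 in Ccn2, -1.76 in Per1 and -2.68 in Tsc22d3. In Ccn2 and Per1 these gaps lie nearer the ischemia differences alone (-1.58 and -1.33). Much of their called mercuric chloride differences (2.47 and 1.77) thus came with the subtraction of the normal rats. Without it, array lot and time cannot be told apart in mercuric chloride. Of 18 immediate early genes 4 differed toward mercuric chloride, as did 4 of 8 glucocorticoid-responsive genes and 6 of 21 genes of the loop and distal nephron, against 2.56% of all genes.

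**Figure D5:**
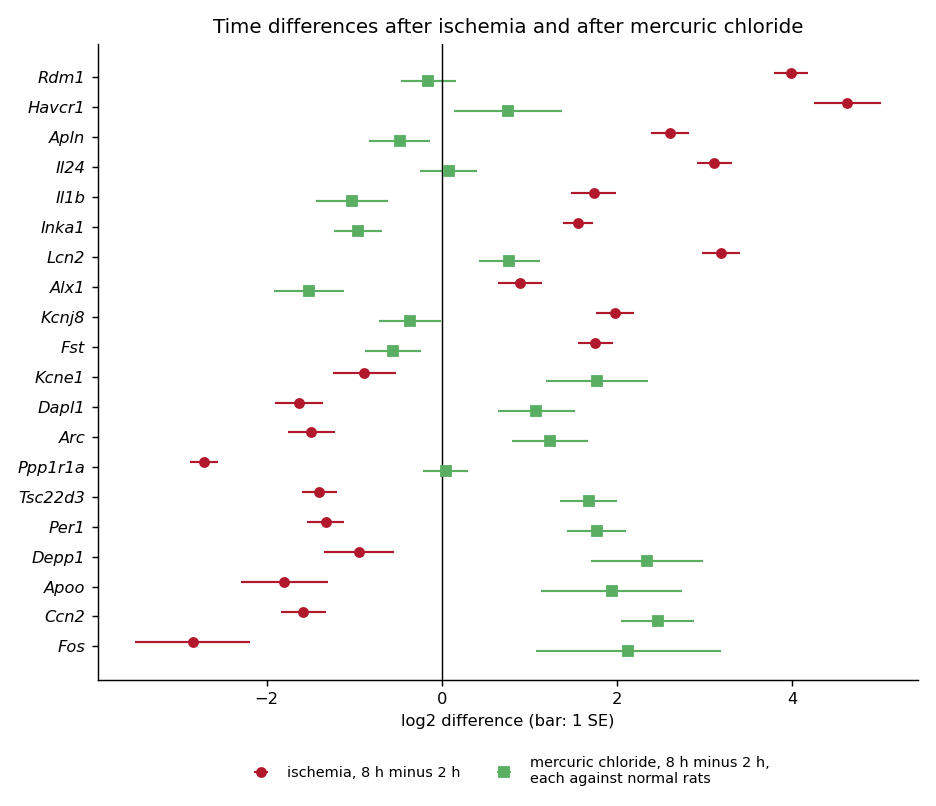
Log2 change between 2 h and 8 h after ischemia (red circles) and after mercuric chloride, each time against normal rats of its array lot (green squares), with 1 SE, for the 10 genes with the largest called difference in each direction. In the 10 upper genes the ischemia value is positive and above the mercuric chloride value, and in the 10 lower genes it is negative and below it.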

How the data were processed

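Kidney RNA was hybridised to 1-colour CodeLink arrays after biotin labelling, per the labels. The deposited values are on another scale than intensity: log2 of 99.39% of 353337 deposited values was a multiple of 0.0001 within 1e-06 (2.0% by chance), with array medians of 0.999 to 1.000, so log2 of a deposited value was taken as the linear intensity, and 0.5 (0.97% of values) as missing. Which scanner software, background correction and scaling were used is not stated in the labels. Sham rat 3 was moved by 2 lines relative to the probe names, which raised its correlation with the other arrays from 0.0652 to 0.9843. Of 9911 probes, 7229 had 1 gene symbol, 21 several and 2661 none.

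Intensities were divided by the array median, floored at 0.1 and log2 transformed, the arrays of a rat were averaged, and 31 rats in 10 groups were fitted with limma 3.58.1 in R 4.3.3 (lmFit, eBayes, Benjamini-Hochberg). Probes needed a measured value in at least 2 rats of each compared group and at least 3 rats above the floor. The method was tested on simulated data. The number of arrays limits the precision, and the labels name each rat as a separate animal. The 47 probes missing in normal rats 11 and 12 were measured on all 8 h and 2 h ischemia arrays, so both groups share a lot. Deviations of rats of the same number correlated at r = 0.168, 0.192 and 0.11 for numbers 1, 2 and 3, each over 0.1, but those of different numbers ranged from -0.237 to 0.245, so the pairing is not specific to the number. As all same-number values passed 0.1, a fit with the replicate number as a block is given for the described genes and the list counts that it changed. This pairing comes from the data, not from the labels.

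The gene lists and the rule for named genes were chosen with earlier results of these data known. The rule took the 15 largest rises and 15 largest falls without overlap between groups, up to 4 called genes per direction in each of 31 lists, a fixed set of kidney injury genes, and the 10 largest differences each way from mercuric chloride. Alternatives changed the floor, the filter, the normalization, the missing values, duplicate arrays, weights, the groups fitted, the prior, and each rat in turn. Some genes are not reported here.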

Additional observations from a re-analysis of the deposited data

Results flagged for a closer look

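Among 160 named genes tested in the 4 rats of the 2 h group, 8 had a rat far from the other 3, and chance flags about 1 in 20. Rat 3 was high for Alx1 (0.815, the others 0.412 to 0.449), Cxcr2 (0.131, against 0.104 or less), Inpp5j (0.759, against at most 0.602) and Kcnj8 (1.23, against at most 0.697). Gucy1b2 was high in rat 4 (5.87, against at most 4.42) and Tsc22d3 in rat 1 (3.35, against at most 2.72). Hadh was low in rat 2 (15.5, against at least 16.1) and Pfkl in rat 1 (0.593, against at least 0.696).

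The time difference of ischemia minus that of mercuric chloride was tested directly, and 20 genes had the largest called values. Toward ischemia these were Rdm1 (4.14), Havcr1 (3.87), Apln (3.08), Il24 (3.04), Il1b (2.76), Inka1 (2.52), Lcn2 (2.42), Alx1 (2.42), Kcnj8 (2.34) and Fst (2.31). Toward mercuric chloride they were Fos (-4.97), Ccn2 (-4.05), Apoo (-3.74), Depp1 (-3.29), Per1 (-3.10), Tsc22d3 (-3.07), Ppp1r1a (-2.76), Arc (-2.73), Dapl1 (-2.71) and Kcne1 (-2.65). Without subtracting normal rats, Apoo (-1.75, adjusted p = 0.0972) and Depp1 (-1.19, adjusted p = 0.165) were no longer called by limma.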

How the results depend on the processing

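The number of probes called between 8 h and 2 h was 3580, and 3095 to 3834 when 1 rat of either group was left out (1651 to 2320 higher, 1414 to 1968 lower). With only the 8 h and 2 h rats in the fit, the residual degrees of freedom were 5 instead of 21, and the spread came from these rats alone. Which of these mattered was not tested. That fit called 1632 probes (888 higher and 744 lower), and 49 named genes lost their call. Among them were Slc2a2 (adjusted p = 0.0739), Atp5f1c (0.105), Cldn10 (0.071), Slc2a1 (0.0916), Lactb2 (0.0524) and Dusp14 (0.0892). With array weights 5180 probes were called, 2475 higher and 2705 lower (47.8% higher). Without 8 h rat 3, 45.6% of calls were higher, against 54.4% with it. With the replicate number as a block 2847 probes were called (1563 higher and 1284 lower), and 13 named genes lost their call, of which Umod, Akr1b8, Hspa5, Hspb8 and Ccl4 are described above. Of 150 named genes called, 34 lost their call without 1 rat, 23 of them without 8 h rat 3. Hk1 changed sign when missing values were set to the floor (-0.51, adjusted p = 0.337). The count that differed from mercuric chloride was 567, and 435 to 1078 without 1 ischemia rat, 2624 with array weights and 1800 with no normal rats subtracted. The cause was not tested. Probes at the floor have no order among themselves.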
